A study of Mus musculus with 12 samples.

Results

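The miR-99/100 and miR-125 families were followed through 5 mature mouse miRNAs: mmu-miR-99a, mmu-miR-99b, mmu-miR-100, mmu-miR-125a-5p and mmu-miR-125b-5p. They were chosen by name, as the members of both families that sit beside let-7 genes, and make up 5 of the 611 mouse miRNAs on the array and 5 of the 145 that were bright enough to test. Levels were read from total RNA of cultured mouse embryonic fibroblasts of the C57BL/6 background on 12 one-colour Agilent miRNA arrays. The cells either lacked the transcription factor ATF4 (labelled ATF4KO, here KO) or carried it (ATF4WT, here WT). They were left untreated or kept in medium with 2 ug/mL tunicamycin, which blocks N-linked glycosylation and so stresses the endoplasmic reticulum, for 12 or 24 h. The 6 groups were KO untreated, KO at 12 h, KO at 24 h, WT untreated, WT at 12 h and WT at 24 h, with 2 arrays each that the study describes as independent experiments. All cells grew in medium with serum and 2-mercaptoethanol. How the KO fibroblasts were derived, and from how many embryos, is not given in the sources used here, and no Atf4 mRNA was measured, so the genotype labels were not checked.

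Both families are old: miR-99/100, let-7 and miR-125 genes lie together in many animals and are made from shared primary transcripts. In mammals miR-125 is known for repressing Lin28 and several apoptosis and p53-pathway genes, miR-99/100 for repressing Mtor and insulin-like growth factor receptor mRNA, and let-7 for repressing Ras, Hmga2 and Lin28 mRNA. ATF4 is translated when the kinase PERK or other stress kinases phosphorylate eIF2alpha, and it drives genes of amino acid supply, redox balance and, in long stress, cell death.

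The mature sequences show why the 5 names form 2 families and why 1 of them cannot be assigned to a locus. They are given 5′ to 3′ as RNA from RefSeq (GRCm38.p6), with the seed, bases 2 to 8, in capitals; all 5 names matched a RefSeq entry.
mmu-miR-99a: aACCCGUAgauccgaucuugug
mmu-miR-100: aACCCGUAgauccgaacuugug
mmu-miR-99b: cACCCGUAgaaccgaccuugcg
mmu-miR-125a-5p: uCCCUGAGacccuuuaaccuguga
mmu-miR-125b-5p: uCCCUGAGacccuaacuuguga
Counted from the 5′ end, miR-100 differs from miR-99a by U16A alone, and miR-99b differs from miR-99a by A1C, U11A, U16C and U21C. miR-125a-5p (24 bases) and miR-125b-5p (22 bases) share their first 13 bases. With 1 base between miR-99a and miR-100, some of the signal of each may come from the other, and this was not tested. 

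By gene, the members fall into 3 loci, each with a let-7 gene in the middle. On chromosome 17 (plus strand), Mir99b (17830188 to 17830257), Mirlet7e and Mir125a (17830812 to 17830879) lie within 692 bp inside the protein-coding gene Spaca6. On chromosome 9, Mir100 (41531425 to 41531504), Mirlet7a-2 and Mir125b-1 (41581926 to 41582002) span 50578 bp inside the long non-coding RNA gene Mir100hg. On chromosome 16, Mir99a (77598936 to 77599000), Mirlet7c-1 and Mir125b-2 (77646273 to 77646343) span 47408 bp. Mir125b-1 and Mir125b-2 give the same mature miR-125b-5p, so its signal sums the chromosome 9 and chromosome 16 loci. let-7a and let-7c also come from other loci.

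Each value below is a scaled signal: the summed spot intensity of the miRNA over the array's 75th percentile, on the log2 scale, with a floor of -4.93. The 75th percentile ranged from 203.5 to 791.2 arbitrary units, and 92 to 164 mouse miRNAs per array were well above background. Fewer cells and less miRNA per cell cannot be told apart, and signals of different miRNAs are not compared as amounts, because probes bind differently. All 4 untreated arrays were on 1 slide and all 8 tunicamycin arrays on the other, so the slide cannot be told apart from the treatment. On both slides the KO arrays lay in row 2 and the WT arrays in row 1, so genotype and array row cannot be told apart either. Each of the 4 scans held KO and WT arrays with the same replicate number, so the KO minus WT difference per replicate is a within-scan value. The pooled SD over tested miRNAs was 0.13 and 0.15 without tunicamycin and 0.51 to 1.22 with it. Whether the arrays of 2 groups overlap is given below for named miRNAs only. The share of all tested miRNAs without overlap was not counted, so a lack of overlap is a description. Of the fibroblast and mesenchyme markers, 7 of 8 were well above background on some array and 6 on all 12. They also moved between the groups: of the 7 tested, 3 were higher and 2 lower in untreated KO than WT (-1.19 to 2.43 on the log2 scale), 3 were higher at 12 h and 2 at 24 h, where 32.4%, 24.8% and 15.2% of all 145 tested miRNAs were called. In WT 4 fell at 12 h and 1 at 24 h, where 31.0% and 15.2% of all tested miRNAs were called. Their medians there were -1.10 and -1.04, beside -0.32 and -0.17 over all tested miRNAs. In KO 0 passed at either time, where 1.38% and 2.76% of all were called. The marker medians in KO were also below those of all tested miRNAs, at -0.56 and -0.81 beside 0.06 and 0.19. Their part in the results that follow was not tested. The epithelial, blood, neural and liver markers were well above background on 0 arrays, and miR-126-3p (endothelium), miR-206 (muscle) and miR-294 (pluripotent cells) on 1, 2 and 1.

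**Figure D1:**
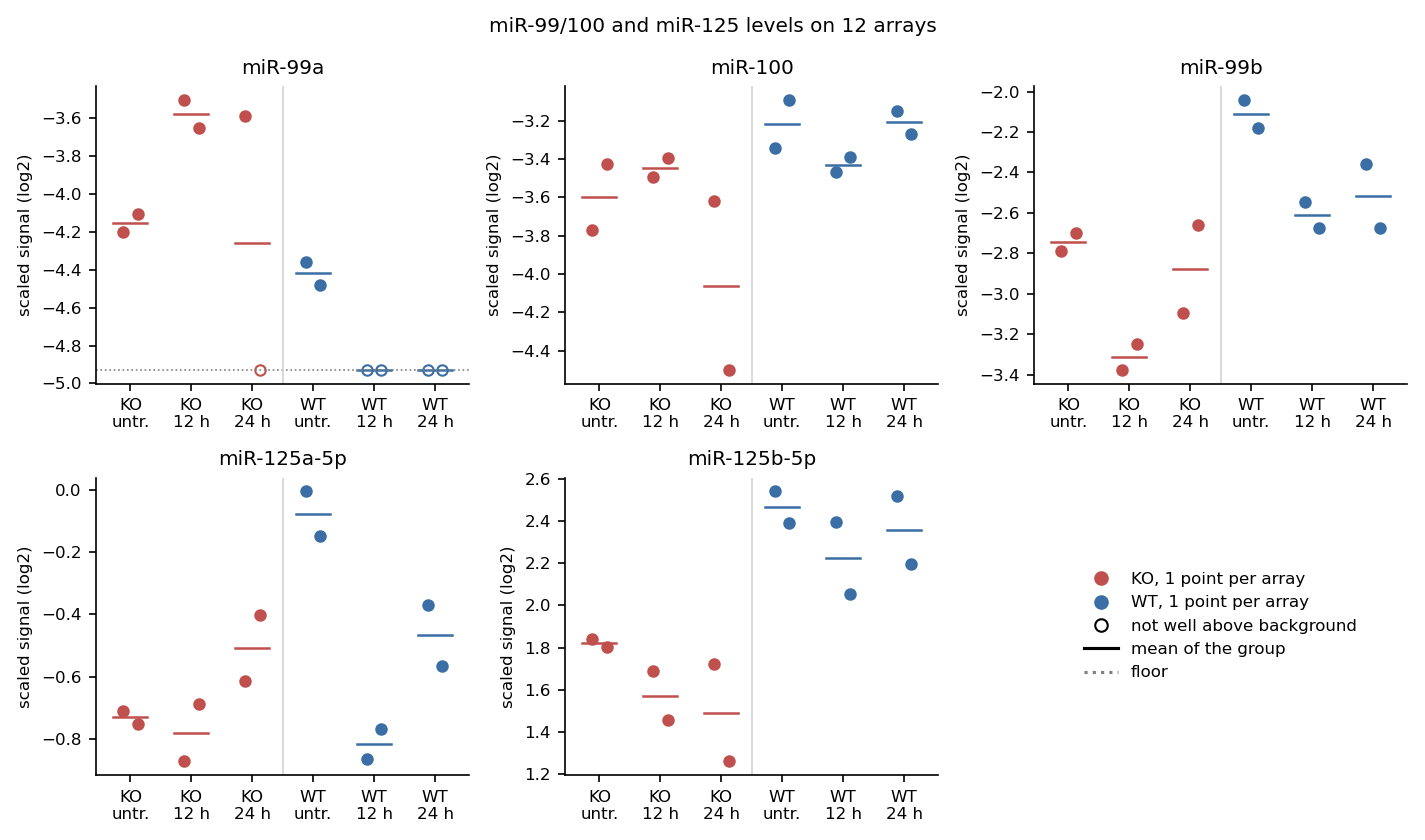
Scaled signal (log2, y axis, different range in each panel) of the 5 miRNAs on each of the 12 arrays, by group (KO left, WT right), with group means as bars and open points where the miRNA was not well above background. All 6 KO arrays lie below all 6 WT arrays for miR-125b-5p, and miR-99a sits on the floor line for each of the 4 WT arrays with tunicamycin.

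miR-125b-5p, the brightest member, was lower in KO than in WT cells in all 3 states. In untreated cells its scaled signal was 1.84 and 1.80 in KO, against 2.54 and 2.39 in WT. At 12 h it was 1.69 and 1.46 in KO, against 2.40 and 2.05 in WT, and at 24 h 1.72 and 1.26 in KO, against 2.52 and 2.19 in WT. The highest KO array lay below the lowest WT array. The summed spot intensity before any scaling ran the same way within each state. It was 2542 and 2758 in untreated KO cells against 3363 and 2919 in untreated WT cells, 1662 and 1146 in KO against 2271 and 2368 in WT at 12 h, and 670.7 and 1356 in KO against 1651 and 1621 in WT at 24 h.

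The KO minus WT difference of miR-125b-5p was -0.65 ± 0.20 (SE) in untreated cells, a level 1.57-fold lower in KO, with an adjusted p of 0.045 by limma with Benjamini-Hochberg adjustment over the 145 miRNAs. At 24 h it was -0.87 ± 0.20, 1.82-fold lower in KO (limma adjusted p = 0.028). At 12 h it was -0.65 ± 0.20, with a limma adjusted p of 0.053 in the fit without a block and of 0.013 and 0.019 with the scan as a fixed and as a random block. The same 12 h value passed the threshold of 0.05 under 6 of the 18 other settings in all (limma adjusted p 0.011 to 0.043) and without either KO 24 h array (0.027). With the scan as a block the untreated and 24 h differences stayed past the threshold (0.0049 to 0.014). The within-scan differences were -0.70 and -0.59 in untreated cells, -0.71 and -0.60 at 12 h, and -0.80 and -0.93 at 24 h. Its 2 probes gave nearly the same differences between genotypes: -0.65 and -0.63 untreated, -0.65 and -0.67 at 12 h, -0.87 and -0.82 at 24 h, the brighter probe first. The difference kept its sign in all 3 states under all 18 other settings and with each of the 12 arrays left out.

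Those calls are read against a wide background. In untreated cells 32.4% of the 145 tested miRNAs differed between KO and WT, 10 higher and 37 lower in KO, and the median over all tested miRNAs was -0.49. The value of miR-125b-5p was thus 0.16 below that median. At 12 h 24.8% were called (21 higher and 15 lower in KO) with a median of 0.04, and at 24 h 15.2% (11 each way) with a median of 0.00, so there nearly the whole difference of miR-125b-5p stood off the median. With the median, quantile or all-miRNA 75th percentile scaling, miR-125b-5p was not called in any state. Of all tested miRNAs, those scalings called 9.66%, 4.14% and 0.690% in untreated cells. They called 13.8%, 0 and 0 at 12 h, and 3.45%, 0 and 0 at 24 h. The untreated difference shrank to -0.32, -0.35 and -0.09 under those 3 scalings. The 24 h difference was -0.88, -0.40 and -1.36, and the 12 h difference -0.83, -0.19 and -0.97, so outside quantile normalization those 2 were at least as large as reported, with larger errors (SE 0.37 with the median and 0.70 with the all-miRNA percentile). Without any scaling the difference was -0.24 in untreated cells and -0.78 at 24 h. Neither was called (limma adjusted p 0.876 and 0.383), where 17.9% and 4.14% of all tested miRNAs were. Over the 18 other settings the untreated call held under 6 and the 24 h call under 8. In untreated cells it was also lost without any 1 of 8 arrays: both KO untreated, both WT untreated, both KO 12 h and both WT 24 h arrays (limma adjusted p 0.055 to 0.183). At 24 h it was lost without KO 24 h replicate 2, either WT 24 h array or any untreated array (limma adjusted p 0.055 to 0.159).

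Tunicamycin itself did not move miR-125b-5p past the threshold in either genotype. The 12 h and 24 h differences from untreated were -0.25 ± 0.20 and -0.33 ± 0.20 in KO, and -0.24 ± 0.20 and -0.11 ± 0.20 in WT (SE, limma adjusted p 0.389 to 0.782). The KO response minus the WT response was -0.0066 at 12 h, with a 95% interval of -0.68 to 0.66, and -0.22 at 24 h, with an interval of -0.89 to 0.45.

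On chromosome 17, miR-99b and miR-125a-5p come from 1 short stretch with let-7e between them. In untreated cells both were lower in KO. miR-125a-5p was -0.71 and -0.75 in KO cells, against -0.0041 and -0.15 in WT cells. miR-99b was -2.79 and -2.70 in KO cells, against -2.04 and -2.18 in WT cells. Neither pair of groups overlapped. The differences were -0.65 ± 0.12 for miR-125a-5p (1.57-fold lower in KO, limma adjusted p = 0.0095) and -0.63 ± 0.17 for miR-99b (1.55-fold lower, limma adjusted p = 0.026). They lay only 0.17 and 0.15 below the median of all tested miRNAs, and neither was called with the median, quantile or all-miRNA 75th percentile scaling. Those scalings called 9.66%, 4.14% and 0.690% of all tested miRNAs in untreated cells. Of the 18 other settings, 11 kept the call of miR-125a-5p and 9 that of miR-99b. With the scan as a fixed block miR-99b was not called (limma adjusted p = 0.058), and as a random block it was (0.0198). The call of miR-125a-5p was lost without either KO untreated array or WT untreated replicate 1 (limma adjusted p 0.0505 to 0.0534), and that of miR-99b without any of the 4 untreated arrays (0.077 to 0.13).

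let-7e, between them, was 0.06 and 0.25 in untreated KO cells, against 0.32 and 0.65 in untreated WT cells. Its difference was -0.33 ± 0.13 (limma adjusted p = 0.090). Ratios within an array do not depend on the scaling, and the miR-99b to miR-125a-5p ratio averaged -2.01 ± 0.09 in untreated KO and -2.03 ± 0.0029 in untreated WT cells (log2, SD, n = 2 arrays each). The ratio therefore differed by 0.02 between the untreated genotypes, less than the SD of the KO arrays.

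Under tunicamycin the chromosome 17 pair separated. At 12 h miR-125a-5p was -0.87 and -0.69 in KO, against -0.86 and -0.77 in WT, and the groups overlapped. miR-99b was -3.38 and -3.25 in KO at 12 h, against -2.55 and -2.67 in WT, without overlap. The KO minus WT difference at 12 h was -0.70 ± 0.17 for miR-99b (1.63-fold lower in KO, limma adjusted p = 0.029) and 0.04 ± 0.12 for miR-125a-5p, with a 95% interval of -0.25 to 0.32. The brighter probe of miR-99b gave -0.63 and the dimmer -0.36 at 12 h. That dimmer probe was at the floor on both KO 12 h arrays. The ratio of miR-99b to miR-125a-5p within an array averaged -2.53 ± 0.04 in KO and -1.79 ± 0.16 in WT at 12 h (log2, SD, n = 2 arrays each). It lay 0.74 lower in KO at 12 h and 0.32 lower at 24 h, with no overlap at either time. These ratios were added after the data were seen and carry no test.

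The 12 h call of miR-99b was not made with the median scaling (-0.88, limma adjusted p = 0.065), quantile (-0.70, 0.746) or all-miRNA 75th percentile (-1.02, 0.596), and held under 8 of the 18 other settings. Those scalings called 13.8%, 0 and 0 of all tested miRNAs at 12 h. With the scan as a fixed block the limma adjusted p of miR-99b was 0.063, and as a random block 0.021. Without either 12 h array of either genotype, or either KO untreated array, its limma adjusted p was 0.0503 to 0.134. At 24 h miR-99b was -3.10 and -2.66 in KO and -2.36 and -2.67 in WT, and the groups overlapped (difference -0.36 ± 0.17, limma adjusted p = 0.233). Without KO 24 h replicate 2 that difference was -0.58 with a limma adjusted p of 0.032. At 24 h miR-125a-5p was -0.61 and -0.40 in KO and -0.37 and -0.56 in WT (difference -0.04 ± 0.12, 95% interval -0.32 to 0.24).

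**Figure D2:**
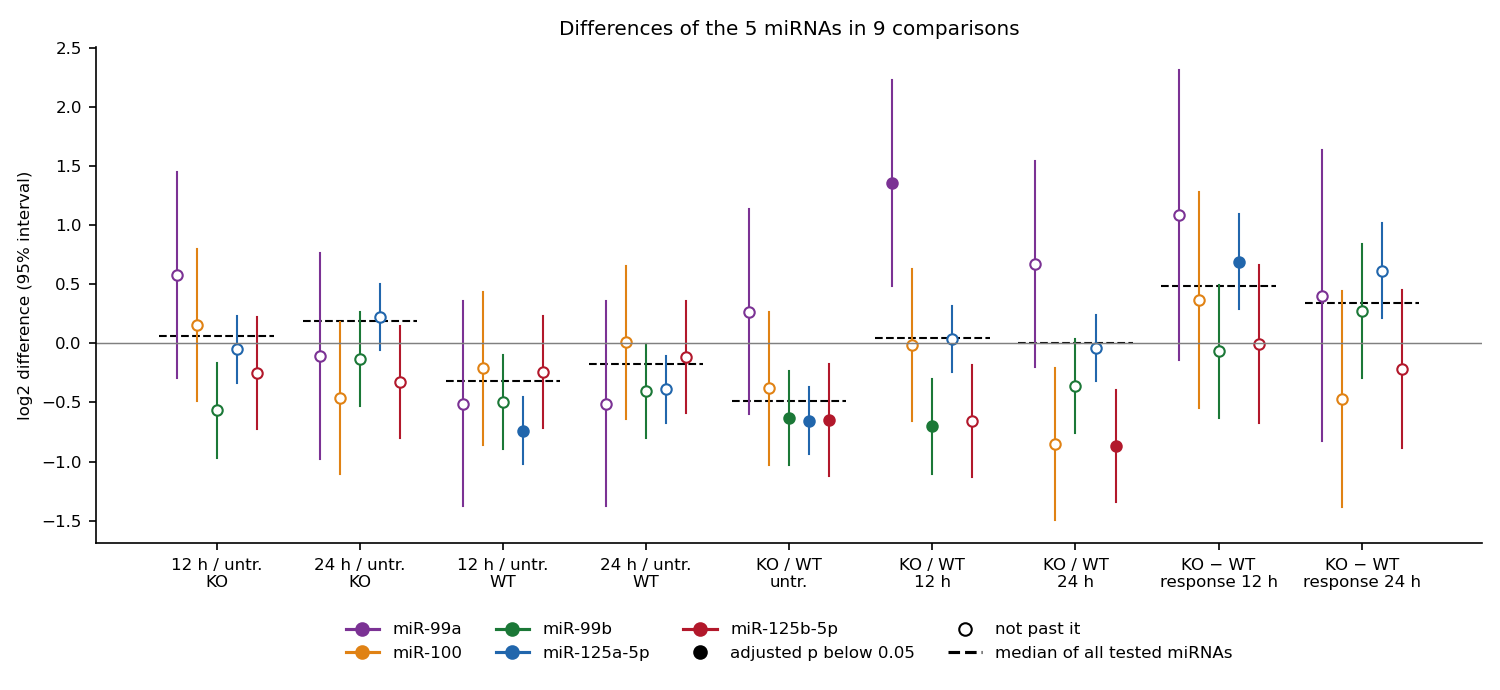
Log2 differences (y axis) of the 5 miRNAs in the 9 comparisons with 95% intervals from limma, filled where the adjusted p was below 0.05, and the median of all 145 tested miRNAs as a dashed line. Of the 45 values 8 are filled, where 1.38% to 32.4% of all tested miRNAs were called per comparison. In untreated KO against WT the 3 filled points lie close to the median at -0.49.

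The only member past the threshold in a tunicamycin response was miR-125a-5p in WT cells at 12 h. It was -0.86 and -0.77 at 12 h, against -0.0041 and -0.15 in untreated WT cells, a difference of -0.74 ± 0.12 (1.67-fold lower at 12 h, limma adjusted p = 0.0054). At 24 h in WT it was -0.37 and -0.56, and the difference from untreated was -0.39 ± 0.12 (limma adjusted p = 0.069). In WT at 12 h 31.0% of all tested miRNAs were called, 1 higher and 44 lower, with a median of -0.32; at 24 h 15.2% were called, all 22 lower, with a median of -0.17. The 12 h call stayed with each of the 12 arrays left out (limma adjusted p 0.0028 to 0.037). It was lost with the brighter probe of each miRNA alone (-0.34, limma adjusted p = 0.111), with Agilent's own total per miRNA (-0.69, 0.117), with the median scaling (-0.45, 0.329) and with quantile normalization (-1.19, 0.229), and it held under 10 of 18 other settings.

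In KO cells miR-125a-5p showed little change on this scale. Its differences from untreated KO cells were -0.05 ± 0.12 at 12 h and 0.22 ± 0.12 at 24 h (SE, limma adjusted p 0.902 and 0.368). The difference in response (KO minus WT) at 12 h was 0.69 ± 0.17 (limma adjusted p = 0.031), while 22.8% of tested miRNAs were called in that comparison, 30 of 33 with a higher value in KO, and the median was 0.48. The miR-125a-5p value stood 0.21 above that median. At 24 h the value was 0.61 ± 0.17 (limma adjusted p = 0.067), with 8.28% called and a median of 0.34. The 12 h call held under 9 of 18 other settings. It was lost without KO 12 h replicate 2, either KO untreated array, either WT 12 h array or WT untreated replicate 1 (limma adjusted p 0.055 to 0.1003). Against let-7e on the same array, miR-125a-5p lay 0.24 lower at 12 h than in untreated cells in KO and 0.58 lower in WT, and the direction was the same in both genotypes.

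The 2 probes of a miRNA did not always move alike between slides. For miR-125a-5p in KO at 12 h, the dimmer probe gave -0.77 and the brighter 0.11, so the probes differed in sign. In WT at 12 h the dimmer probe gave -1.38 and the brighter -0.59. miR-125b-5p showed the same split, with -0.96 for the dimmer and -0.19 for the brighter probe in KO at 12 h, and -0.91 and -0.19 in WT. Over the 47 miRNAs with both probes well above background on all arrays, the dimmer probe gave the lower value for 37 to 42 in the 4 tunicamycin comparisons, with medians of -0.06 to -0.17. Between KO and WT the medians were -0.03 to 0.03. The part of this split in the tunicamycin values was not tested.

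**Figure D3:**
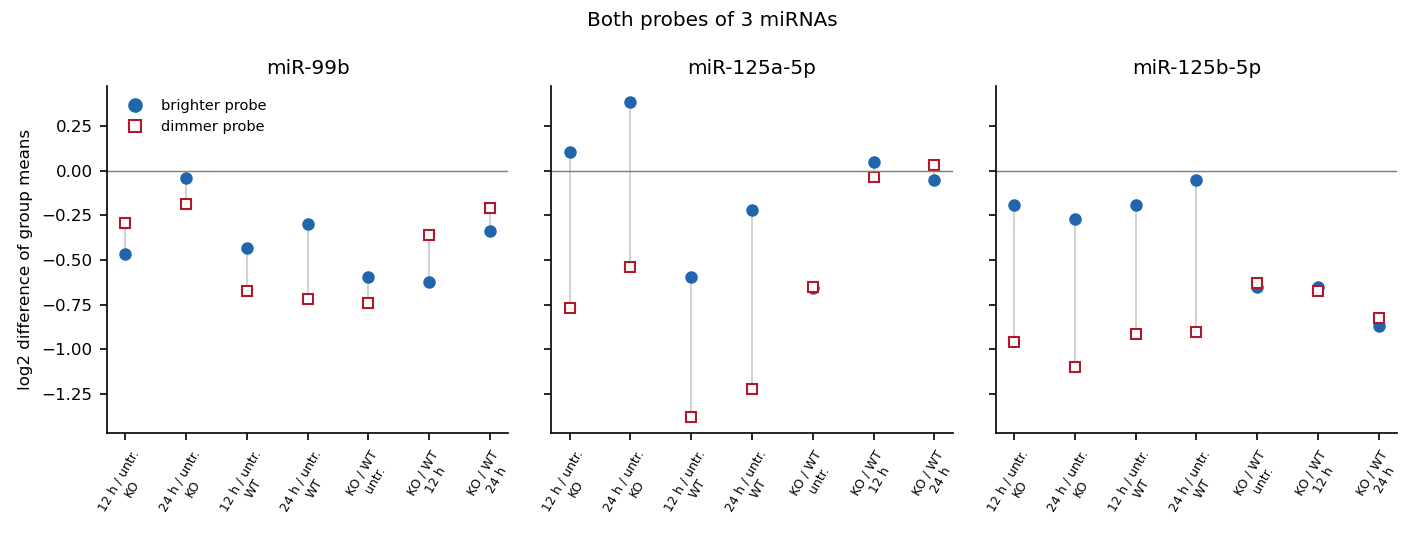
Log2 difference (y axis) of the brighter and the dimmer probe of miR-99b, miR-125a-5p and miR-125b-5p in 7 comparisons (x axis), on the main scaling. For both miR-125 members the probes part in the 4 tunicamycin comparisons and nearly coincide in the 3 between KO and WT.

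miR-99a, from chromosome 16, ran the other way from miR-99b and miR-125b-5p. It was -4.20 and -4.11 in untreated KO cells, against -4.36 and -4.48 in untreated WT cells, close above the floor in both. At 12 h it was -3.50 and -3.65 in KO, and both WT arrays were not well above background. At 24 h KO replicate 1 was at -3.59, while KO replicate 2 and both WT arrays were not well above background. KO cells at 12 h therefore held at least 2.52-fold more miR-99a signal than WT cells at 12 h (limma adjusted p = 0.038). The fitted means behind that call were -3.58 in KO and the floor of -4.93 in WT, and with WT at the floor the within-scan differences were 1.43 and 1.28.

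The miR-99a result rests on 1 dim probe, since its other probe was well above background on 0 of 12 arrays. The brighter probe was well above background on 7 arrays with a mean of at most 38.3 intensity units. The 12 h call held without either KO 24 h array and was lost without any of the other 10 (limma adjusted p 0.065 to 0.159). It was not called with the floor set at double height (0.35, limma adjusted p = 0.063), with the scan as a fixed block (1.35, 0.057), with median scaling (1.34, 0.075) or with quantile normalization (1.37, 0.365), and it held under 7 of the 17 other settings that tested it. At 12 h the higher floor, fixed scan block, median scaling and quantile normalization called 14.5%, 18.6%, 13.8% and 0 of all tested miRNAs. In untreated cells the difference was 0.27 ± 0.37 (limma adjusted p = 0.671), and at 24 h 0.67 ± 0.37 (0.320). The KO response minus the WT response was 1.09 ± 0.52 at 12 h (limma adjusted p = 0.205) and 0.40 ± 0.52 at 24 h (0.740). All 4 WT arrays with tunicamycin were set to the floor, so their replicate gaps of 0 come from the floor and add no measured spread to the SE behind the miR-99a p-values. The log2 differences of miR-99a against those arrays likewise depend on the height of the floor. The 2 KO 24 h arrays differed by 1.34, with replicate 2 at the floor, and the arrays of the other 3 groups by 0.09 to 0.15.

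miR-100, from chromosome 9, passed the limma threshold in 0 of 9 comparisons and had an unadjusted p below 0.05 in 1. It was -3.77 and -3.43 in untreated KO cells, -3.49 and -3.39 in KO at 12 h and -3.62 and -4.50 in KO at 24 h. In WT it was -3.34 and -3.09 untreated, -3.47 and -3.39 at 12 h and -3.15 and -3.27 at 24 h. The KO and WT arrays overlapped at 12 h only. The KO minus WT differences were -0.38 ± 0.27 untreated, -0.02 ± 0.27 at 12 h and -0.85 ± 0.27 at 24 h (SE, limma adjusted p 0.344, 1.00 and 0.085). KO 24 h replicate 2 was the lowest array, and with that array alone standing for KO at 24 h (without replicate 1) the difference was -1.29 with a limma adjusted p of 0.0059. Without replicate 2 it was not called, and the value was -0.41.

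**Figure D4:**
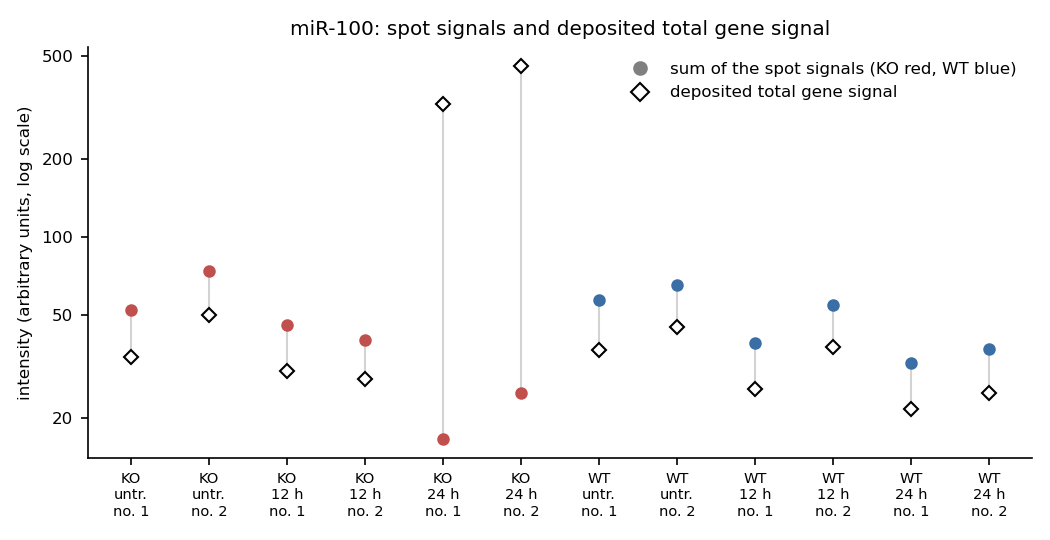
Intensity of miR-100 (arbitrary units, log axis) on each array (KO left, WT right): filled circles are the sum of the spot signals, open diamonds the deposited total gene signal. On the 2 KO 24 h arrays the deposited totals of 326.9 and 459.8 stand over spot sums of 16.6 and 25.0, while on the other 10 arrays the total lies just below the sum.

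The deposited total per miRNA departed from the spots for miR-100. On 10 arrays the deposited total was 0.646 to 0.708 times the spot sum. On the KO 24 h arrays it was 19.7 and 18.4 times the spot sum, where the spot sums were the lowest of the 12 arrays. The dimmer probe was not well above background on those 2 arrays, nor on 5 others. With the deposited totals, miR-100 was 4.004 higher in KO than WT at 24 h on the log2 scale (limma adjusted p = 0.00046), the opposite of the spot signals. Over all arrays, 146 of 1429 miRNA and array pairs had a total more than 4-fold above the array's usual ratio, and 0 more than 4-fold below. miR-99b on KO 12 h replicate 2 and KO 24 h replicate 1 was 0.51 and 0.49 above it on the log2 scale. No other member departed by more than that in the upward direction.

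For the tunicamycin responses as a whole, 0 of 5 members passed in KO at 12 h, where 1.38% of tested miRNAs did, and 0 of 5 in KO at 24 h, where 2.76% did. An unadjusted limma p below 0.05 was found for 1 and 0 members, and for 21 and 26 of all 145 miRNAs. In WT 1 of 5 passed at 12 h and 0 of 5 at 24 h, where 2 members and 50 of all 145 miRNAs had an unadjusted p below 0.05. The members' median was -0.05 and -0.13 in KO at 12 and 24 h, beside 0.06 and 0.19 over all miRNAs. In WT it was -0.50 and -0.39, beside -0.32 and -0.17. The KO counts depend on the KO 24 h arrays. Without either of them 2 of 5 members passed at 12 h in KO, beside 9.66% of all tested miRNAs. They were miR-99b (-0.57, limma adjusted p = 0.042) and miR-99a (0.58), whose p there rests in part on the WT arrays at the floor.

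The let-7 neighbours differed in the direction of some members beside them and not of others. let-7c, next to Mir99a, was 0.67 and 0.76 in KO at 12 h, against 0.08 and 0.05 in WT, a difference of 0.65 ± 0.10 (limma adjusted p = 0.0058). At 24 h it was 0.99 and 0.83 in KO, against 0.32 on both WT arrays, a difference of 0.59 ± 0.10 (limma adjusted p = 0.012). In untreated cells the let-7c groups overlapped (difference -0.05 ± 0.10). Under tunicamycin let-7c thus differed between KO and WT cells in the same direction as miR-99a. The miR-99a differences were 1.35 at 12 h and 0.67 at 24 h, with WT at the floor. The direction was opposite to that of miR-125b-5p, which also has a gene at the chromosome 16 locus but whose signal includes chromosome 9. let-7c was higher in KO under all 18 other settings at both times and was called under 11 of them at 12 h and 9 at 24 h. Within an array, the ratio of miR-125b-5p to let-7c averaged 0.86 ± 0.23 in KO and 2.16 ± 0.22 in WT at 12 h (log2, SD, n = 2 arrays each). It averaged 0.58 ± 0.21 in KO and 2.03 ± 0.22 in WT at 24 h, and 1.36 ± 0.18 in KO and 1.96 ± 0.20 in WT cells without tunicamycin.

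let-7a, next to Mir100, was called by limma in 0 of 9 comparisons and had an unadjusted p below 0.05 in 1. Its KO minus WT differences were -0.53 ± 0.22 untreated, 0.34 ± 0.22 at 12 h and -0.11 ± 0.22 at 24 h. The miR-125b-5p to let-7a ratio averaged 0.32 ± 0.13 in KO and 1.31 ± 0.07 in WT at 12 h, and 0.92 ± 0.12 in KO and 1.04 ± 0.17 in WT without tunicamycin. let-7a and let-7c have similar sequences, and cross-hybridisation between them was not tested. Of the 9 let-7 family members tested, 3 were higher and 0 lower in KO at 12 h, where 24.8% of all tested miRNAs were called, and 2 were higher at 24 h, where 15.2% were. In untreated KO 1 was lower (32.4% called over all), and in WT at 12 h 3 fell (31.0%). The let-7 counts in those 4 comparisons lay near or below those shares. The let-7 medians there were 0.21, -0.06, -0.53 and -0.43, beside 0.04, 0.00, -0.49 and -0.32 over all tested miRNAs. In the difference in response 4 were higher at 12 h (22.8% called over all) and 1 at 24 h (8.28%). The let-7 medians were 0.70 and 0.44, beside 0.48 and 0.34. In KO 0 were called at 12 h (1.38%) and 1 was higher at 24 h (2.76%), and in WT at 24 h 0 were called (15.2%).

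The opposite strands of the same hairpins were dim. Of the 4 on the array, miR-125a-3p was well above background on 3 of 12 arrays and miR-99b*, miR-125b* and miR-125b-3p on 0, so none was tested. miR-351, the other array miRNA with a member's seed, was well above background on 0 of 12 arrays.

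Across the 12 arrays the members did not share 1 pattern. Pearson's r, given as a description over arrays that share slides and scaling, was 0.75 for miR-99b with miR-125a-5p and 0.75 for miR-99b with miR-125b-5p. It was 0.72 for miR-100 with miR-125b-5p, 0.43 for miR-125a-5p with miR-125b-5p, and -0.67 for miR-99a with miR-99b. miR-99a ran most closely with let-7c among its neighbours (0.66), while miR-125b-5p and let-7c gave -0.65. Ranked by r among the 144 other tested miRNAs, miR-125a-5p was number 16 for miR-99b and miR-125b-5p number 3 for miR-100. For miR-99a let-7c was number 15. The r values of miR-99a include arrays at the floor, since it was well above background on 7 of 12. The nearest tested miRNAs outside both families were miR-193b for miR-99a (0.93), miR-222 for miR-99b (0.90) and miR-15b for miR-100 (0.78). For miR-125a-5p the nearest was miR-146a (0.94), and for miR-125b-5p it was miR-7a (0.95) followed by miR-222 (0.90).

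**Figure D5:**
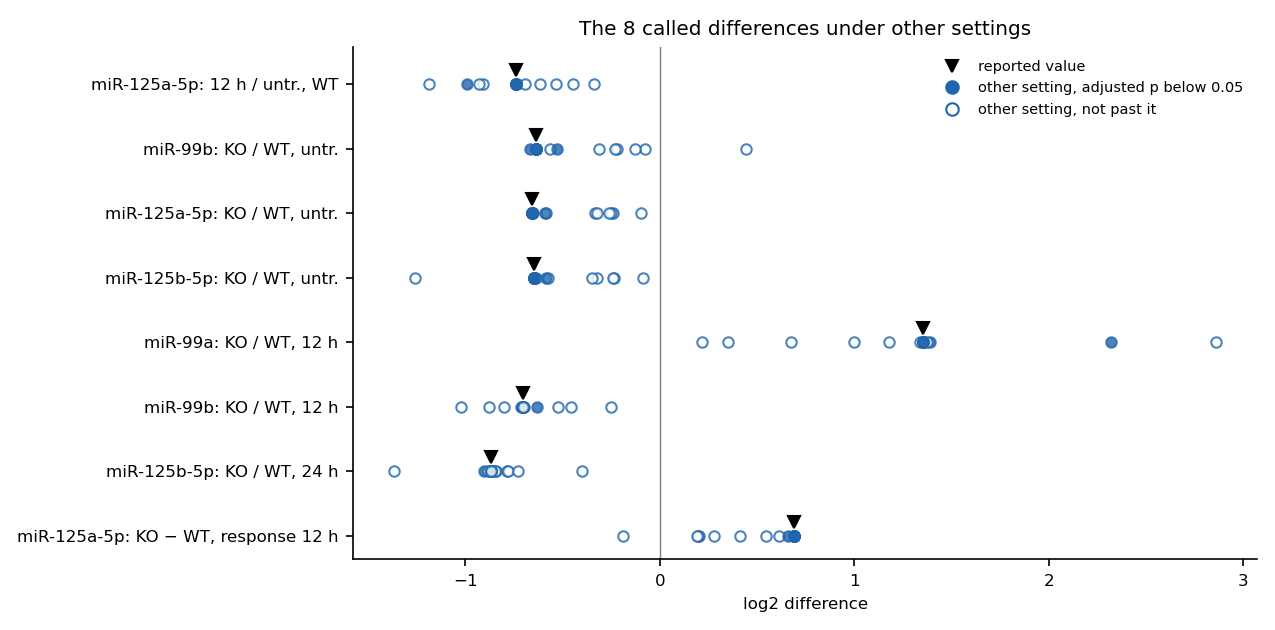
Log2 differences (x axis) of the 8 called results under the reported setting (triangles) and up to 18 other settings (circles, filled where the adjusted p was below 0.05). The 24 h miR-125b-5p values all lie below 0, from -1.36 to -0.40, and the untreated KO against WT values reach close to 0 under other scalings.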

How the data were processed

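Total RNA was hybridised to 12 Agilent arrays in 6 groups of 2. Per the file headers, the authors used Agilent Feature Extraction 10.7.1.1, whose processed signal is an intensity in arbitrary units, with the background subtracted and no scaling across arrays. The total gene signal is another deposited intensity, and the deposited value table holds its log2 with no scaling. Other deposited columns used here are the median spot and background intensities and 0 or 1 flags.

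Spots of a probe were averaged and the probes of a miRNA added up, leaving out controls and outlier-flagged spots. For scaling, the signals of an array were set relative to the 75th percentile of the 82 miRNAs that were well above background on every array, floored at 0.0328 (-4.93 in log2) and logged. Well above background means flagged so on at least 50% of the spots of 1 probe or more. Tests covered the 145 mouse miRNAs that met this in each array of 1 or more groups. Where 1 group was not well above background, its values were raised to the lowest signal well above background on each array and the fold given as "at least".

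One fit of 6 group means was made with limma 3.58.1 in R 4.3.3 (lmFit and eBayes, 6 residual degrees of freedom, prior 1.02), with Benjamini-Hochberg adjustment over 145 miRNAs and a threshold of 0.05. P-values rest on the spread between the 2 arrays of a group, pooled for each miRNA over all 6 groups and moderated by eBayes. The tunicamycin arrays thus enter the error of the untreated comparison too. Having 2 arrays per group limits the precision. The fit was tested on simulated data for WT at 12 h against untreated. It recovered 61.6% of log2 changes of 1, and 3.90% of its calls were false. The simulation gave each miRNA the same spread in all groups and applied no floor. It therefore cannot show how the fit handles the unequal spread of the real groups. The scan entered as a block with statmod 1.5.0. The files held no mean spot signal, so normexp (offset 50) used the median signal. Each member, its let-7 neighbour, the 3 miRNAs most correlated with each member and the lists were named. Members, lists and tests were chosen with earlier results of these data known. Replicate numbers do not pair arrays across slides by the labels.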

Additional observations from a re-analysis of the deposited data

Results flagged for a closer look

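Responses to tunicamycin that differed between the genotypes by the interaction test drew attention to mmu-miR-125a-5p at 12 h. Its KO response minus its WT response was 0.69 (limma adjusted p = 0.031), made of -0.05 in KO and -0.74 in WT. The median over all tested miRNAs in that comparison was 0.48.

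A signal outside the main measurement was seen for mmu-miR-100, whose deposited total gene signal was 326.9 on KO 24 h replicate 1 and 459.8 on KO 24 h replicate 2. The spots of miR-100 on those arrays summed to 16.6 and 25.0, and the deposited totals on the 4 untreated arrays were 34.5 and 49.9 in KO and 36.7 and 44.9 in WT. On this measure 47 miRNAs were over 4-fold above the usual ratio on at least 1 array, so miR-100 was not the only one. The cause was not tested.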

How the results depend on the processing

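Results kept their direction more often than their call. Of 143 values of the 8 called results under the other settings, 68 were still called, 73 had the same sign without a call and 2 changed sign. With an array left out, 52 of 96 were called and the other 44 kept their sign. With 75th percentile scaling over all miRNAs, median scaling, quantile normalization or the normexp background correction, 0 of 5 members were called in any comparison. Calls were few over all tested miRNAs too: 0 to 0.690%, 0.690% to 13.8%, 0 to 4.14% and 0 per comparison, in that order. Members called per comparison otherwise moved as follows, with the share of all tested miRNAs called in brackets for counts above 0. The reported counts were 3 (32.4%), 2 (24.8%) and 1 (15.2%) for KO against WT untreated, at 12 h and at 24 h. They were 0 and 0 for the KO response at 12 h and 24 h, 1 (31.0%) and 0 for the WT response, and 1 (22.8%) and 0 for the difference in response. The Agilent total gene signal gave 0, 0 and 1 (4.14%), then 0 and 1 (2.76%), 0 and 0, 0 and 1 (2.07%). The deposited values gave 0, 0 and 1 (3.45%), then 0 and 2 (9.66%), 0 and 0, 0 and 1 (0.690%). No scaling gave 1 (17.9%), 1 (10.3%) and 0, then 0 and 3 (37.9%), 1 (24.8%) and 2 (43.4%), 0 and 0. The mean of log2 over probes gave 2 (34.5%), 1 (18.6%) and 0, then 0 and 0, 2 (30.3%) and 1 (17.2%), 1 (17.9%) and 0. No filter gave 1 (2.78%), 0 and 0, then 0 and 0, 1 (3.76%) and 0, 0 and 0. The brightest probe only, added after seeing the data, gave 3 (36.6%), 3 (29.0%) and 1 (17.9%), then 0 and 0, 0 and 0, 0 and 0. The spread from the compared groups alone gave 3 (62.1%), 1 (10.3%) and 0, then 0 and 0, 2 (18.6%) and 1 (27.6%), 2 (32.4%) and 0. Scan as a fixed block gave 2 (34.5%), 1 (18.6%) and 1 (9.66%) for KO against WT. As a random block it gave 3 (41.4%), 3 (28.3%) and 1 (16.6%), and 1 (15.9%) for the difference in response at 24 h. The higher floor gave 2 (24.1%), 1 (14.5%) and 1 (11.7%) for KO against WT. At 12 h it gave 1 (26.2%) for the WT response and 1 (16.6%) for the difference in response. The lower floor gave, in the same order, 2 (26.2%), 2 (25.5%), 1 (14.5%), 1 (26.9%) and 1 (19.3%). Only the 82 miRNAs bright on all arrays gave 2, 2, 1, 1 and 1. Of those 82 miRNAs, 23, 27, 17, 29 and 19 were called. With either floor or this filter, all other counts were 0.

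The replicate block gave 3 (37.2%), 3 (25.5%) and 1 (13.8%) for KO against WT. The count at 12 h was 2 without the block, and with it miR-125b-5p reached a limma adjusted p of 0.011. The block changed no other call. The difference between replicates 1 and 2 within a group was compared between groups by Pearson's r. That r was 0.68 between the untreated groups, 0.68 to 0.95 among the tunicamycin groups and -0.54 to -0.24 across, so number and scan go together. With the numbers of the untreated arrays crossed, a choice made after seeing the data, the counts were also 3 (36.6%), 3 (23.4%) and 1 (13.8%).

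Leaving out 1 array also leaves 1 array in its group. In each of the 9 comparisons the number of members called changed with some array left out, and so did the share of all tested miRNAs called. Leaving out either KO 24 h array, where miR-99a and miR-100 spread most, raised all 9 counts, and the share of all tested miRNAs called with them (in KO at 12 h to 9.66%, beside 1.38%). Of all 1341 values of the members under other settings or with an array left out, 107 did not keep the reported sign, in 34 of 45 member and comparison pairs. Among those where either value was called, signs turned for mmu-miR-100 with the total gene signal (4.26 in KO at 24 h against untreated, 4.004 KO against WT, 4.32 difference in response) and the deposited table (3.22, 4.06 and 4.03), and with no scaling in WT at 24 h (-0.82). They turned for mmu-miR-99a in KO at 24 h without KO 24 h replicate 2 (0.56, against -0.78 without replicate 1), mmu-miR-99b in untreated KO against WT with normexp (0.44) and mmu-miR-125a-5p in the 12 h difference in response with 75th percentile scaling over all miRNAs (-0.19). The causes were not tested. Slide as a random block was not run, because slide and treatment coincide. Signal over background limits miR-99a, which lay at the floor on all 4 WT arrays with tunicamycin.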
